A study of Mus musculus with 37 samples.

Results

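The genes described here belong to 8 families that hold pre-mRNA splicing factors. They were chosen by their symbol in the array annotation: Snrp, Srsf, Sf3a, Sf3b, Hnrnp, Prpf, U2af and Lsm followed by a digit or letter, with Snrpn left out. The first version of the mouse bead array held 75 such probes and the second 76, and 59 and 61 of them were detected (detection p below 0.05) on 2 or more arrays. They stood for the same 45 genes on both versions, of 8244 and 7181 named genes detected by the same rule. The 45 were 7 Snrp, 6 Srsf, 3 Sf3a, 2 Sf3b, 11 Hnrnp, 7 Prpf, 2 U2af and 7 Lsm genes. Of 52 genes with a matching symbol, 7 had no probe past the detection rule (Hnrnpa3, Hnrnpd, Hnrnph2, Prpf4b, Sf3b6, Snrpb2 and Snrpe). On both versions 41 of the 45 genes were read by the same probe, and Hnrnpa2b1, Hnrnpr, Hnrnpul1 and Lsm12 were not.

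Splicing removes introns with small nuclear ribonucleoproteins (snRNPs), in which each spliceosomal RNA is bound by a ring of Sm proteins, or of Lsm proteins in the case of U6, and by proteins of its own. SF3A and SF3B are parts of the U2 snRNP at the branch point, U2AF marks the 3' splice site beside it, and PRPF proteins hold the U4/U6.U5 particle together or join U1 to the 5' splice site. SR proteins (Srsf) and hnRNPs bind exons and introns and shift which sites are used. In mouse development the oocyte stores RNA for the first divisions, transcription from the embryo's genome starts in earnest at the 2-cell stage, and maternal RNA is degraded around that time. Not every Lsm gene encodes a splicing protein: Lsm10 and Lsm11 belong to the U7 snRNP of histone RNA processing, and Lsm14a and Lsm14b to cytoplasmic particles that hold stored or repressed RNA. Lsm12 is a member by its symbol alone, and its values are not a result about the U6 ring.

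RNA was measured on 37 single-colour arrays of mouse nuclear transfer (NT) embryos, their donor cells, oocytes, zygotes and control embryos; embryos were cultured in KSOM. The donors were tail tip fibroblasts of agouti 129xB6 F1 mice (arrays 1, 2 and 8). On version 1, prometaphase NT embryos (27 and 28) and anaphase NT embryos (15 and 19) had received an interphase tail tip cell at that phase of mitosis, 22 to 24 h before collection according to the first label of each pair. Their controls were M-phase zygotes (24, 25 and 26), interphase zygotes (1, 30 and 31, the first about 25 h after hCG), 2-cell embryos (22 and 23) and embryos kept from cleaving until 2-cell timing (20 and 38), with 2-cell embryo 22 and inhibited embryo 20 dated to about 22 to 24 h past the first mitosis. On version 2, MII oocytes (2 arrays), oocyte NT embryos made from interphase tail tip fibroblasts (2 arrays, 2 d after transfer), blastomere NT embryos (3 arrays, 14 h after transfer) and 4-cell controls (2 arrays, 14 h after release from a mitotic block) were compared. The labels do not name the donor cell of the blastomere NT embryos. Embryos without a genome (1 d), NT embryos of interphase zygotes and ES cells (1 d after transfer where stated) and parthenotes (2 d after activation) had 1 array per version at most. Strain of the embryos, their number per array and their sex were not given in the sources used here, and the cell type label of prometaphase NT embryos reads zygote.

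Levels are log2 intensities after background correction and quantile normalization within a version, so 1 unit is a factor of 2, and a level is relative to the other RNA on its array. Probes differ in brightness, so levels are compared within a gene and within a version. Between 30.7 and 45.7% of probes were detected per version 1 array, except 20.8 and 18.8% for the ES cell NT and genome-less embryos, and between 33.8 and 44.0% on version 2. Fibroblast arrays 1 and 2, called biological duplicates by the labels, differed as little as repeat hybridizations did and were counted as 1 sample. Blastomere NT arrays 1 and 3, which differed less from each other than from array 2, were also counted as 1 sample. The 2 anaphase NT arrays correlated at 0.816, the lowest of any group. Averaged over the 9 of 13 fibroblast markers measured on version 1, levels were 10.66 to 10.98 in fibroblasts and 4.38 to 4.59 in 2-cell embryos. They were 5.17 and 5.26 in prometaphase NT and 6.90 and 7.61 in anaphase NT embryos. The 8 of 11 oocyte markers measured were at 11.26 to 11.30 in M-phase zygotes, 8.96 and 9.03 in 2-cell embryos and 10.28 and 10.55 in anaphase NT embryos. Of 8 macrophage markers listed, 4 were measured on each version. All 4 were detected in fibroblasts (9.34 to 9.67), and 3 or 4 in blastomere NT embryos (8.39 to 9.29, against 5.5 and 5.66 in 4-cell controls). Of the 4, 1 was called lower in 2-cell embryos than in M-phase zygotes (-4.95). Likewise 1 was called lower in 4-cell embryos than in MII oocytes (-4.29), so these averages are not a measure of macrophage RNA alone.

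The promoters of 5 genes are shown because these genes moved in different ways at the 2-cell stage: Snrpd2, Snrpc and Snrpa1 were called higher there, Snrpd3 was not, and Lsm14b was called lower. Each window runs from 250 bases before to 50 bases after a RefSeq transcript start (GRCm38.p6), 5' to 3', and capitals mark matches on either strand to the CCAAT box (CCAAT), the GC box (GGGCGG), an ETS-type motif (CCGGAAG), an E-box (CACGTG) or the TATA box (TATAAA).
Snrpd2, chr7:19149588-19149887, plus strand: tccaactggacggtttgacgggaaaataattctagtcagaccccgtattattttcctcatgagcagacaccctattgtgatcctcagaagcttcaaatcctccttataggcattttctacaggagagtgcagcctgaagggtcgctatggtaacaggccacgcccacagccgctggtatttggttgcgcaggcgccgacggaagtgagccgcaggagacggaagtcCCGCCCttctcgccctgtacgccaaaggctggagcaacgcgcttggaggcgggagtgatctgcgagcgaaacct
Snrpc, chr17:27839837-27840136, plus strand: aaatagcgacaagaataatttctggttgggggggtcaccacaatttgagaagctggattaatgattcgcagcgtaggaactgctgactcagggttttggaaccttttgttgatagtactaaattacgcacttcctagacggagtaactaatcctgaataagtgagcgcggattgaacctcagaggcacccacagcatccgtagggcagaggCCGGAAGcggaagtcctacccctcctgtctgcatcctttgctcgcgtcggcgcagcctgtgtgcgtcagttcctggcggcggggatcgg
Snrpa1, chr7:66060086-66060385, plus strand: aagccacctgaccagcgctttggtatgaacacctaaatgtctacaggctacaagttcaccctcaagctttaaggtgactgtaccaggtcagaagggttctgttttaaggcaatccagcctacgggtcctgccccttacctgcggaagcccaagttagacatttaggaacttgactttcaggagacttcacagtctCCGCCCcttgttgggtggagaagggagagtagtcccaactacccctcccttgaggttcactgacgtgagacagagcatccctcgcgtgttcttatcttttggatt
Snrpd3, chr10:75517792-75518091, plus strand: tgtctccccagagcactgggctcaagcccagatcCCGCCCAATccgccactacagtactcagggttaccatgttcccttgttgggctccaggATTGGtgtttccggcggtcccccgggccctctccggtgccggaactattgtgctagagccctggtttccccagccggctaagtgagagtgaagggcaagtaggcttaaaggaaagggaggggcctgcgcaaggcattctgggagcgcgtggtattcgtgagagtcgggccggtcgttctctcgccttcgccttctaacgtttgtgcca
Lsm14b, chr2:180024737-180025036, plus strand: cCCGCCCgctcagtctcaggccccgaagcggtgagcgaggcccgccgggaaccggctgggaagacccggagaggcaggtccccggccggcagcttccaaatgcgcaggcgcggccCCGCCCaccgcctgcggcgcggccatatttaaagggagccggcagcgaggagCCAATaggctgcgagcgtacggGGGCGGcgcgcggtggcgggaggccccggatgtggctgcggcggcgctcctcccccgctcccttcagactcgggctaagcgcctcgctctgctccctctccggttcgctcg
Of the 45 genes, 40 had a window and 52 windows were counted. The GC box was found in 63.5% of them and in 35.7% of all 32851 windows. The CCAAT box was found in 26 of the 52 and in 37.4% of all windows. Shares were 19.2 and 8.86% for the ETS-type motif, 13.5 and 7.15% for the E-box, and 11.5 and 13.6% for the TATA box. In the Snrpd3 window a GC box and a CCAAT box overlap. Among the 5 windows shown, those of Snrpd2 and Snrpa1 held 1 GC box each, that of Snrpc 1 ETS-type motif, and that of Lsm14b 3 GC boxes and a CCAAT box. The set of all windows includes genes not detected on these arrays, and shares among detected genes were not counted. These pairs of shares therefore do not set splicing factor genes apart from other detected genes. A match is a run of letters and not a measured binding site. No window was given for Snrpb, Snrpd1, Hnrnpll, U2af2 and Lsm12.

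The passage from M-phase zygotes (3 samples) to 2-cell embryos (2 samples) split the families. Of the 45 genes, 13 rose and 7 fell at an adjusted p below 0.05, beside 40.1% of all 8244 genes called in either direction (19.4% higher and 20.7% lower). The Snrp family had the highest median difference, 2.74, with 5 of 7 genes higher and none lower, while the median of all genes was 0. Median differences were 0.96 in Srsf, 0.24 in Sf3a, 0.24 in Prpf, 0.13 in Hnrnp, -0.30 in Lsm, -0.83 in Sf3b and -1.39 in U2af. Levels are relative to the other RNA on an array, so these differences do not give amounts per embryo or per cell.

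Snrpb encodes the Sm protein B/B' of the ring shared by U1, U2, U4 and U5. It read 5.63, 6.17 and 7.56 in M-phase zygotes 25, 24 and 26, and 10.70 and 10.87 in 2-cell embryos 22 and 23. Both 2-cell values lay above all zygotes, a difference of 4.33 (SE 0.46, adjusted p = 1.3e-05). A second Snrpb probe rose by 3.78. Snrpd2, the Sm D2 protein of the same ring, read 5.79, 5.54 and 7.14 in the zygotes and 10.58 and 11.10 in the 2-cell embryos. The groups were again apart, by 4.69 (SE 0.76, adjusted p = 0.00032). Snrpc (the C protein of U1, at the 5' splice site) read 5.03, 4.83 and 5.49 and then 8.48 and 8.74, a difference of 3.49 (SE 0.39, adjusted p = 1.6e-05). Snrpa (the A protein of U1, which binds one of its stem-loops) was at 5.44 to 5.58 in the zygotes and 8.04 and 8.42 in the 2-cell embryos, 2.74 higher (SE 0.27, adjusted p = 6.4e-06). Snrpa1 (the A' protein of U2) was at 7.19 to 7.40 and then 8.88 and 8.85, 1.57 higher (SE 0.23, adjusted p = 0.00017).

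The other Sm D genes did not pass. Snrpd3 was already at 10.15 to 10.46 in M-phase zygotes and at 9.53 and 10.13 in 2-cell embryos, a difference of -0.53 (SE 0.30, adjusted p = 0.20). Snrpd1 was at 5.70 to 6.13 and then 5.01 and 5.61, a difference of -0.64 (SE 0.62, adjusted p = 0.48). Among the Sm ring genes with a detected probe, Snrpb and Snrpd2 rose, while the fitted differences of Snrpd1 and Snrpd3 were below 0 and did not pass. The ring was seen in part only: Snrpe had no probe past the detection rule, and no probe carried the symbol Snrpf or Snrpg.

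**Figure D1:**
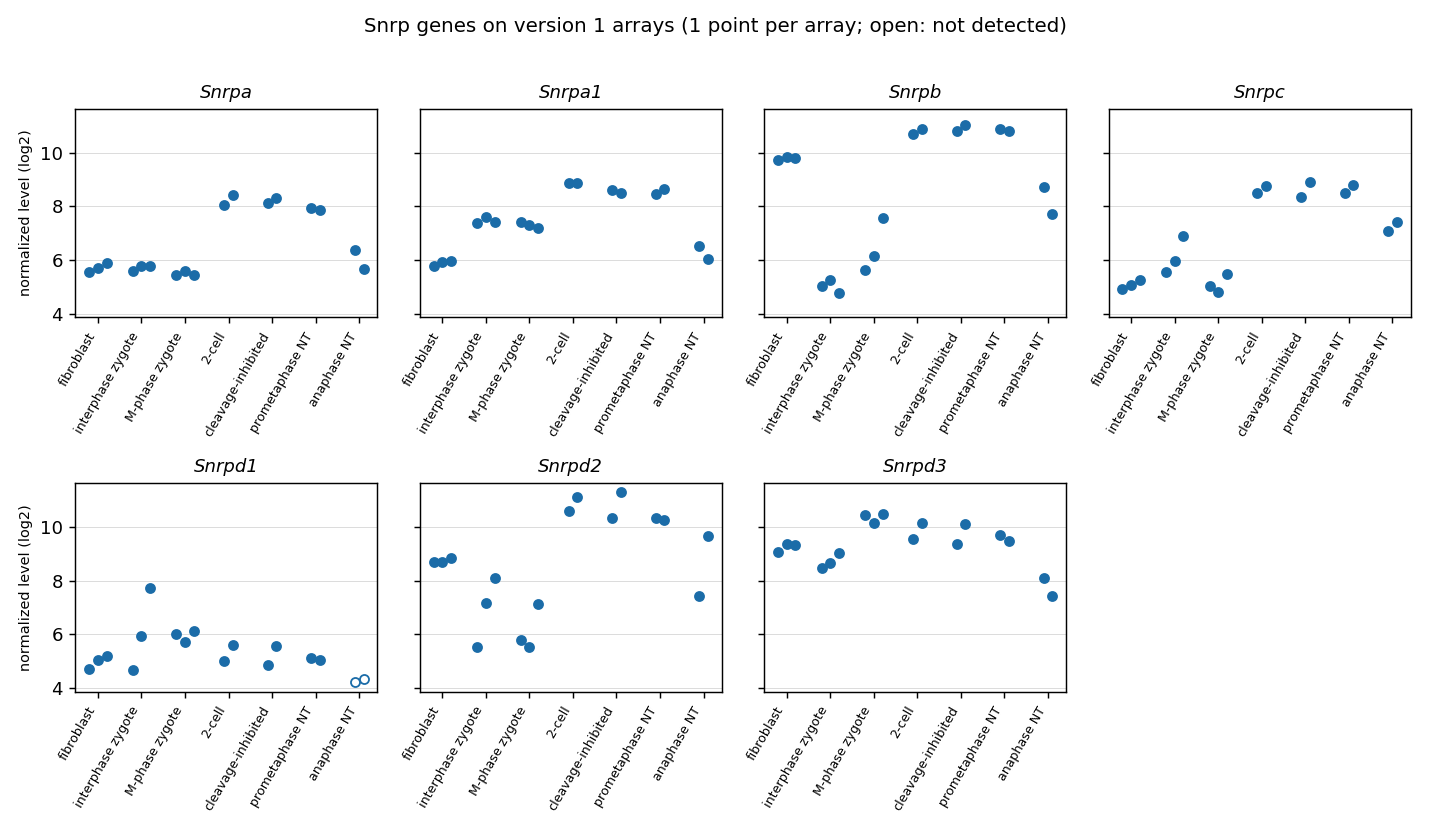
Normalized log2 level (y axis) of the 7 Snrp genes on each version 1 array (points) by group (x axis); open points were not detected. Snrpb, Snrpd2, Snrpc, Snrpa and Snrpa1 are higher in 2-cell, cleavage-inhibited and prometaphase NT embryos than in M-phase zygotes, and the 2 anaphase NT arrays lie below the 2-cell arrays in every panel.

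In the SF3 complexes, Sf3a3 rose by 0.85 (SE 0.23, adjusted p = 0.010), a call that was lost without 2-cell embryo 23 (0.83), and Sf3a1 (0.24) and Sf3a2 (-0.89) did not pass. Sf3b3 fell from 8.27 to 8.56 in the zygotes to 6.90 and 6.91 in the 2-cell embryos, by -1.50 (SE 0.50, adjusted p = 0.031), and lost its call when any of the 5 samples was left out (-1.56 to -1.42). Among Prpf genes, Prpf6, a bridge between U5 and U4/U6, fell from 10.63 to 10.78 down to 9.57 and 9.43. This was a difference of -1.18 (SE 0.27, adjusted p = 0.0033). Prpf31, a U4 protein, was called higher by 0.68 (SE 0.23, adjusted p = 0.029), but stood close to background and lost the call without 2-cell embryo 22 (0.77), 2-cell embryo 23 (0.58) or M-phase zygote 25 (0.56). Prpf8, the central U5 protein, was at 6.41 to 6.43 and then 7.59 and 7.68, and its difference of 1.22 (SE 0.62) did not pass (adjusted p = 0.15).

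U2af1l4, a paralogue of the small U2AF subunit, read 9.08, 9.29 and 9.07 in M-phase zygotes and 6.73 and 6.84 in 2-cell embryos. It was lower in both embryos, by -2.36 (SE 0.48, adjusted p = 0.0016), whereas the large subunit U2af2 differed by -0.42 (SE 0.34, adjusted p = 0.39). Of the SR proteins, Srsf9 was at 8.23 to 8.39 and then 10.51 and 10.27, 2.08 higher (SE 0.39, adjusted p = 0.00088). Srsf2 fell by -1.24 (SE 0.37, adjusted p = 0.016), and without 2-cell embryo 22 it did not pass (-1.09). Srsf3 was called higher by 0.95 (SE 0.33, adjusted p = 0.036), a value that rested on 2-cell embryo 22: it was 0.26 without that sample and 1.64 without embryo 23, and it was also not called without any 1 of the M-phase zygotes. Srsf1 differed by 0.96 (SE 0.39) and did not pass (adjusted p = 0.065).

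Among the 11 hnRNP genes 3 rose and none fell. Hnrnpu, a nuclear RNA and chromatin binding protein, read 4.91, 4.61 and 4.64 in the zygotes, the last not detected, and 7.82 and 7.63 in the 2-cell embryos. It was 3.0 higher (SE 0.50, adjusted p = 0.00038) with no overlap. Hnrnpm read 8.03, 7.54 and 8.77 and then 10.97 and 10.58, 2.66 higher (SE 0.50, adjusted p = 0.00092). Hnrnpab rose by 1.71 (SE 0.34, adjusted p = 0.0015). Hnrnpa2b1 differed by -0.53 (SE 0.51, adjusted p = 0.48), but its other detected probe was called 1.64 higher, so that gene has no settled direction. Hnrnpk was not detected in the 2-cell embryos.

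The Lsm genes that fell were not those of the U6 ring. Lsm14b read 8.61, 8.43 and 8.72 in M-phase zygotes, 6.03 in 2-cell embryo 22 and 4.55 in embryo 23, where it was not detected, a difference of -3.30 (SE 0.54, adjusted p = 0.00033). Its second probe, near background, differed by -0.44 and did not pass. Lsm10 fell from 10.91 to 11.02 down to 9.38 and 9.24, by -1.64 (SE 0.22, adjusted p = 6.8e-05). Lsm14a fell by -1.40 (SE 0.50, adjusted p = 0.042), and leaving out any of the 5 samples ended the call (-1.68 to -1.13). Lsm12 rose by 1.77 (SE 0.41, adjusted p = 0.0038), and Lsm2 (0.47, SE 0.43) and Lsm7 (-0.30, SE 0.57), both of the U6 ring, did not pass. The 2-cell embryos and M-phase zygote 24 lay on 1 slide, within which all 20 called genes kept their direction. These arrays had also made the calls, so a kept direction is not an independent check, here or in the within-slide counts below. With slide as a block 14 genes were called, and with scaling to a 75th percentile, which moved the median of all genes to 0.31, 15 were called higher and 4 lower.

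**Figure D2:**
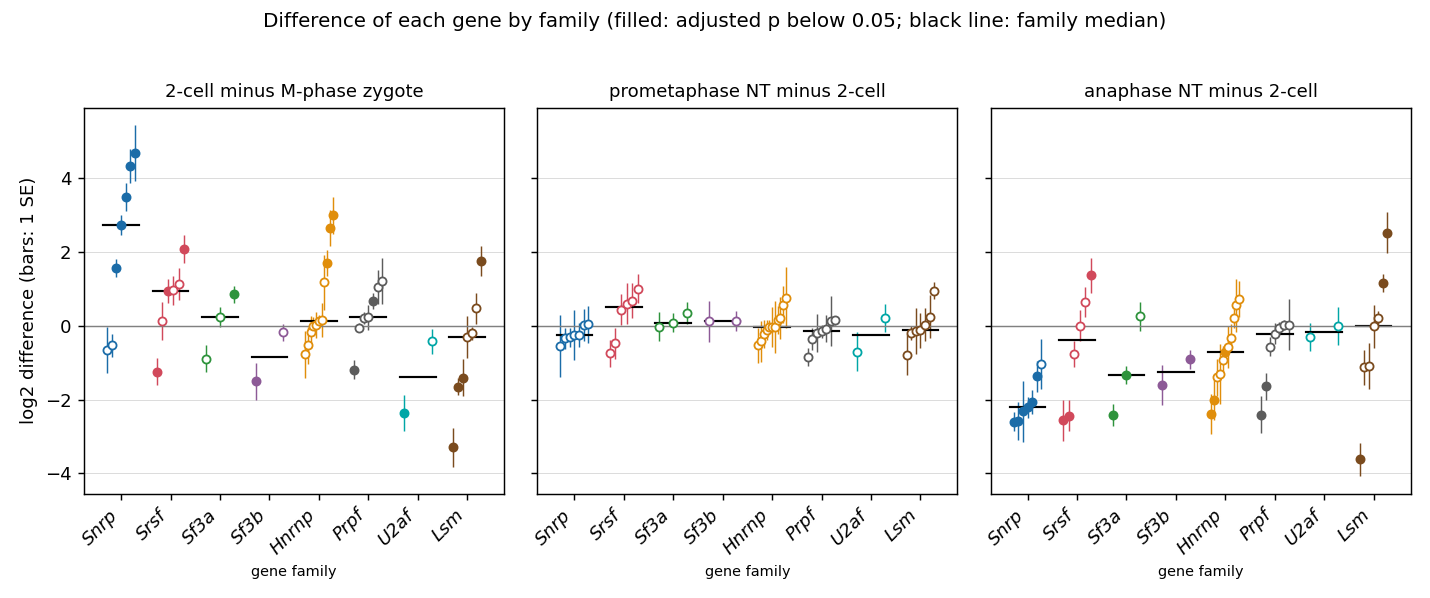
Log2 difference (y axis, bars 1 SE) of each gene by family (x axis) for 2-cell minus M-phase zygotes, prometaphase NT minus 2-cell and anaphase NT minus 2-cell; filled points passed an adjusted p of 0.05 and black lines are family medians. The Snrp median is 2.74 in the first panel, -0.24 in the second and -2.21 in the third.

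Between interphase and M-phase zygotes (3 samples each) few of these genes differed: 2 were higher and 1 lower in M phase, beside 1.65% of all genes (1.04% higher and 0.607% lower). Snrpd3 read 8.45, 8.67 and 9.04 at interphase and 10.45, 10.15 and 10.46 in M phase. It was 1.64 higher in M phase (SE 0.27, adjusted p = 0.013), with no overlap, and lost its call without M-phase zygote 25 (1.59). Hnrnpm was 2.09 higher (SE 0.45, adjusted p = 0.039), and its call was lost when any M-phase zygote or interphase zygote 30 or 31 was left out (1.76 to 2.38). Hnrnpk, which binds C-rich RNA, read 6.11, 6.13 and 7.66 at interphase and was not detected in 2 of 3 M-phase zygotes, a difference of -2.06 (SE 0.31, adjusted p = 0.0094). Interphase zygote 1 correlated less with the other two (0.902 and 0.907), and 7 genes were called without it. With slide as a block no gene was called. All 3 kept their direction within the slide that held both groups, whose arrays had also made the calls.

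Embryos kept from cleaving until 2-cell timing did not differ from cleaved 2-cell embryos in any of the 45 genes at an adjusted p below 0.05 in limma, beside 0.194% of all genes called (0.097% in each direction). None reached an unadjusted p below 0.05 either, none was called under any of the alternatives run, and differences ranged from -0.65 (Hnrnpa2b1) to 0.83 (Srsf6). Snrpb was at 10.80 and 11.02, Snrpd2 at 10.33 and 11.28 and Snrpc at 8.33 and 8.92 in these embryos, overlapping the 2-cell values. With 2 samples a group and 200 of 8244 genes shifted in simulated data, the model recovered 72% of 2 log2 shifts in this comparison. It recovered 33% of 1 log2 shifts.

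Prometaphase NT embryos were set against 2-cell controls and against M-phase zygotes. Against 2-cell controls (2 samples each) none of the 45 genes was called in limma, beside 1.59% of all genes (1.26% higher and 0.328% lower), and 3 had an unadjusted p below 0.05. Differences ranged from -0.84 (Prpf31) to 1.01 (Srsf2). Snrpb read 10.86 and 10.80, 0.04 above the 2-cell mean (SE 0.51). Snrpd2 read 10.34 and 10.25, below both 2-cell embryos, with a difference of -0.55 (SE 0.83). Snrpc read 8.48 and 8.80, a difference of 0.03 (SE 0.42). Lsm10 came nearest to the threshold, at 10.47 and 10.07 against 9.38 and 9.24, 0.96 higher (SE 0.24, adjusted p = 0.079), and with fibroblasts 1 and 2 counted as separate samples it was called. Without 2-cell embryo 23, Srsf3 was called. Fibroblast markers were detected in these embryos (4 and 5 of 9, against 2 in each 2-cell embryo), and the part of carried-over RNA in these values was not tested.

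Against M-phase zygotes, prometaphase NT embryos had 13 genes higher and 6 lower, beside 42.6% of all genes (21.8% higher and 20.8% lower). The largest rises were those of Snrpb (4.38, SE 0.46, adjusted p = 1.1e-05), Snrpd2 (4.14, SE 0.76, adjusted p = 0.00071), Snrpc (3.52, SE 0.39, adjusted p = 1.4e-05), Hnrnpm (2.63, SE 0.50) and Hnrnpu (2.58, SE 0.50). Lsm14b (-3.05, SE 0.54), U2af1l4 (-3.05, SE 0.48) and Lsm14a (-2.18, SE 0.50) fell, each at an adjusted p of at most 0.0035. Here Srsf1 (1.40, SE 0.39, adjusted p = 0.010) and Srsf6 (1.83, SE 0.43, adjusted p = 0.0040) were called too; without prometaphase NT embryo 27 Srsf1 was not (1.34), and without embryo 28 Srsf6 was not (1.39). This comparison and that of 2-cell embryos share the M-phase zygotes. The prometaphase NT embryos lay on the slide of the 2-cell embryos and M-phase zygote 24, and all 19 called genes kept their direction within it. Those arrays had also made the calls.

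Anaphase NT embryos received the same donor cell type at a later phase of mitosis, and most snRNP genes were lower in them than in 2-cell controls. Of the 45 genes 18 were lower and 3 higher (2 samples each), beside 32.7% of all genes called (15.6% higher and 17.1% lower). The Snrp median was -2.21, with 6 of 7 genes lower, while all genes had a median of 0.04. Medians were -1.33 in Sf3a, -1.25 in Sf3b, -0.71 in Hnrnp, -0.38 in Srsf, -0.21 in Prpf, -0.15 in U2af and -0.02 in Lsm. Oocyte and fibroblast markers were both higher in these embryos than in 2-cell controls (5 and 7 of 9 fibroblast markers detected, with Col1a2 and Postn detected in neither embryo), and anaphase NT embryo 15 had the lowest share of probes detected among the replicated groups of version 1. The 9 markers of embryo genome activation averaged 7.42 and 8.07 in anaphase NT embryos, 10.14 and 10.25 in 2-cell controls, 10.14 and 9.96 in prometaphase NT embryos and 6.07 to 6.52 in M-phase zygotes. Of these 9, 7 were lower in anaphase NT than in 2-cell embryos, among them Nr5a2 (-3.80, SE 0.53, adjusted p = 0.00018), and 2 were higher, Zfp352 (3.26, SE 0.51, adjusted p = 0.00039) and Tcstv3 (1.69, SE 0.24, adjusted p = 0.0002). Tead4 was detected in neither anaphase NT embryo, and Dppa4 and Pramel7 were not detected in embryo 15. The part of any of these in the results was not tested.

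Snrpb read 8.71 and 7.71 in anaphase NT embryos 15 and 19, below both 2-cell embryos and both prometaphase NT embryos, and above all 3 M-phase zygotes. The difference from 2-cell embryos was -2.58 (SE 0.51, adjusted p = 0.0019), and its second probe differed by -3.47. Snrpa1 read 6.51 and 6.03 and was 2.59 units below the 2-cell embryos (log2 difference -2.59, SE 0.26, adjusted p = 1.5e-05). Snrpa read 6.36 and 5.68, a difference of -2.21 (SE 0.29, adjusted p = 0.00012). Snrpa1 was below all M-phase zygotes too (-1.02, SE 0.23, adjusted p = 0.0046), and Snrpa was not called against them (0.53, SE 0.27). Snrpd3, not called between zygote and 2-cell stage, read 8.08 and 7.44 and was lower than in 2-cell embryos by -2.07 (SE 0.33, adjusted p = 0.00044) and lower than in M-phase zygotes by -2.60 (SE 0.30, adjusted p = 4.0e-05). Snrpd2 read 7.41 and 9.64, a wide spread, and its difference of -2.32 (SE 0.83, adjusted p = 0.0496) was lost without anaphase NT embryo 15 (-1.21) or either 2-cell embryo. Snrpc read 7.10 and 7.40, lower than 2-cell by -1.36 (SE 0.42, adjusted p = 0.026), a call lost without embryo 15 (-1.21) or either 2-cell embryo. Snrpd1 was not detected in either anaphase NT embryo, and its difference of -1.03 (SE 0.68) did not pass (adjusted p = 0.28).

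Sf3a1, an SF3A subunit, read 6.56 and 6.82 in anaphase NT embryos, 8.94 and 9.25 in 2-cell embryos, 9.67 and 9.24 in prometaphase NT embryos and 8.60 to 9.07 in M-phase zygotes. It was below all 3 of those groups, by -2.41 from the 2-cell embryos (SE 0.30, adjusted p = 8.1e-05) and -2.17 from the zygotes (SE 0.28, adjusted p = 8.0e-05). Sf3a3 was lower than in 2-cell embryos by -1.33 (SE 0.25, adjusted p = 0.0016). Sf3b3 (-1.60, SE 0.55) and Sf3b2 (-0.91, SE 0.26) were called as well, but Sf3b3 was not detected in embryo 15, and its value was -0.57 without that embryo and -2.63 without embryo 19. Its call was also lost without either 2-cell embryo. Sf3b2 lost its call without embryo 19 (-0.76) or 2-cell embryo 23. Prpf38a was lower by -2.40 (SE 0.51, adjusted p = 0.0029). Prpf3, a U4/U6 protein, was lower by -1.63 (SE 0.37, adjusted p = 0.0045), -1.03 without embryo 15, and its other probe was called in the opposite direction (0.68). Prpf8 read 6.34 and 9.0, on either side of the 2-cell values.

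Of the SR genes, Srsf9 read 7.42 and 8.48 and was lower by -2.44 (SE 0.43, adjusted p = 0.00083). Srsf5 read 6.08 in embryo 15 and was not detected in embryo 19, against 7.72 in both 2-cell embryos, a difference of -2.56 (SE 0.56, adjusted p = 0.0035) that was -1.64 without embryo 19. Srsf6 went the other way, at 7.77 and 7.69 against 5.90 and 6.81, 1.38 higher (SE 0.47, adjusted p = 0.041), and was not called without either anaphase NT embryo or 2-cell embryo 22 (0.93). Srsf6 was also higher in fibroblasts than in 2-cell embryos, as given below. Hnrnpu was lower by -2.39 (SE 0.55, adjusted p = 0.0048). Hnrnpm (-2.02, SE 0.55) and Hnrnpc (-0.71, SE 0.19) were called lower, and without embryo 15 neither was (-1.23 and -0.44), nor was either without 2-cell embryo 22.

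The Lsm family moved both ways in anaphase NT embryos. Lsm12 was not detected in either embryo, against 8.02 and 7.94 in 2-cell embryos and 6.07 to 6.44 in M-phase zygotes, which made it at least 8.50-fold lower than in the 2-cell embryos (log2 difference -3.62, SE 0.45, adjusted p = 7.5e-05). Lsm14a read 11.85 and 11.54, above 9.44 and 8.89 in 2-cell embryos and above 8.36 and 8.41 in prometaphase NT embryos. It was 2.53 higher than in the first (SE 0.55, adjusted p = 0.0036) and 3.31 higher than in the second (SE 0.55, adjusted p = 0.00054). Lsm10 was 1.17 higher than in 2-cell embryos (SE 0.24, adjusted p = 0.0024). Lsm14b read 6.31 and was not detected in the other embryo, and unlike Lsm14a did not stand above the 2-cell level (difference -0.02, SE 0.59).

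Set directly against each other, anaphase and prometaphase NT embryos (2 samples each) differed in 20 of the 45 genes, beside 37.3% of all genes (17.6% higher and 19.7% lower): 19 were lower in anaphase NT embryos and 1, Lsm14a, was higher. The largest falls after Lsm12 (-3.65, at least 8.69-fold) were those of Srsf5 (-3.15, SE 0.56, adjusted p = 0.00080), Sf3a1 (-2.77, SE 0.30, adjusted p = 2.8e-05) and Snrpb (-2.62, SE 0.51, adjusted p = 0.0016). Hnrnpl was not detected in the anaphase NT embryos and was at least 2.84-fold lower (log2 difference -1.96, SE 0.50, adjusted p = 0.0084), a call lost without prometaphase NT embryo 28 (-1.45). Without prometaphase NT embryo 28 the count was 13, and without the other samples in turn it was 15 to 27. Both anaphase NT embryos lay on 1 slide and both 2-cell and both prometaphase NT embryos on another. With slide as a block, estimated from the M-phase zygotes that lay on both, 3 of the 21 calls against 2-cell embryos (Lsm12, Sf3a1 and Snrpa1) and 4 of the 20 against prometaphase NT embryos (the same 3 and Lsm14a) remained, with no change of direction. A repeat hybridization of anaphase NT RNA on the slide of the 2-cell embryos kept the direction of all 21. It correlated at 0.997 with embryo 19 and 0.814 with embryo 15, and was set against the same 2-cell arrays. It thus repeats RNA already in the fit and is not an independent check.

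Against M-phase zygotes, anaphase NT embryos had 4 genes higher and 13 lower, beside 36.2% of all genes (17.1% higher and 19.1% lower). The genes higher were Srsf6 (2.51, SE 0.43, adjusted p = 0.00069), Snrpd2 (2.37, SE 0.76, adjusted p = 0.029), Snrpc (2.13, SE 0.39, adjusted p = 0.0010) and Snrpb (1.76, SE 0.46, adjusted p = 0.011). Without embryo 15 Snrpb was not called (1.26), and without embryo 19 (1.25) or M-phase zygote 24 or 25 Snrpd2 was not. Lsm14b (-3.31, SE 0.54, adjusted p = 0.00047) and U2af1l4 (-2.36, SE 0.48, adjusted p = 0.0021) were lower, U2af1l4 by -1.38 without embryo 19. Sf3b3 was lower by -3.10 (SE 0.50, adjusted p = 0.00047). All 17 called genes kept their direction against M-phase zygote 25, which lay on the slide of both anaphase NT embryos. These arrays were also in the fit that made the calls. With slide as a block 8 were called. Of the called genes 5 had several probes. Of their other probes 4 did not pass and 1 was called the opposite way.

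The donor fibroblasts (3 arrays, counted as 2 samples) differed from 2-cell embryos in 19 of the 45 genes, 15 lower and 4 higher, beside 43.5% of all genes (23.2% higher and 20.4% lower). Snrp genes had a median of -2.08, against -0.06 over all genes. Snrpc read 4.94, 5.08 and 5.26 in fibroblasts, 3.48 units below 2-cell embryos (difference -3.48, SE 0.42, adjusted p = 2.2e-05), close to its level in M-phase zygotes. Snrpa1 (-2.96, SE 0.26, adjusted p = 9.8e-07) and Snrpa (-2.47, SE 0.29, adjusted p = 1.7e-05) were lower as well, with no overlap. Snrpb, at 9.72, 9.82 and 9.79, lay between zygotes and 2-cell embryos and did not pass against the latter (-1.01, SE 0.51, adjusted p = 0.13). Lsm2 read 5.35, 5.33 and 5.51 in fibroblasts and at least 6.27 in every embryo of version 1, -3.14 from 2-cell embryos (SE 0.47, adjusted p = 0.00013). Hnrnpu was lower by -2.91 (SE 0.55, adjusted p = 0.00076) and Prpf38a by -2.54 (SE 0.51, adjusted p = 0.0012). Of the 19 called genes 4, among them Prpf38a and Srsf2, had several probes, and their 4 other probes did not pass.

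The genes higher in fibroblasts were Srsf6 (1.86, SE 0.47, adjusted p = 0.0061), Srsf2 (1.13, SE 0.40, adjusted p = 0.037), Prpf40b (1.05, SE 0.13, adjusted p = 2.9e-05; at least 1.61-fold, since it was not detected in 2-cell embryos) and Prpf39 (0.51, SE 0.17, adjusted p = 0.027). Srsf6 read 8.27, 8.25 and 8.18 in fibroblasts and was not called without 2-cell embryo 22 (1.41). Srsf2 lost its call without any of the samples in turn (0.98 to 1.28), and Prpf39 without 2-cell embryo 22 (0.25) or fibroblasts 1 and 2. Lsm14b was not detected on any fibroblast array. Macrophage markers were high on these arrays, and their part in the values was not tested. This comparison depended on the scaling: with a 75th percentile in place of quantiles the median of all genes moved to -0.88, 27.8% of calls over all genes were higher in place of 53.3%, and 1 of the 45 genes was higher and 26 lower. With slide as a block 7 genes were called. Fibroblasts and 2-cell embryos shared no slide.

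On version 2, 4-cell embryos were set against MII oocytes (2 samples each) and 21 of the 45 genes were higher and 7 lower, beside 53.3% of all 7181 genes called (26.5% higher and 26.8% lower). Medians were 3.15 in Srsf, 2.26 in Sf3b, 1.89 in Hnrnp, 1.40 in Snrp, 0.69 in Sf3a, 0.17 in Prpf, -0.67 in Lsm and -1.38 in U2af, and -0.02 over all genes. Scaling to a 75th percentile moved the median of all genes to -0.60 and gave 15 genes higher and 11 lower, and Hnrnpc then changed sign. All 28 called genes kept their direction within the slide that held both oocyte arrays and 4-cell embryo 1, arrays that had also made the calls. With slide as a block 21 were called. The labels name a different slide for 4-cell embryo 2 in its title than in its description, and the description was followed; with the slide of its title, which was that of 4-cell embryo 1, an alternative added after seeing the data, the block left 28 genes called.

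Snrpd2 read 6.27 (not detected) and 8.93 in MII oocytes and 14.52 and 14.55 in 4-cell embryos, 6.93 higher (SE 0.63, adjusted p = 6.0e-06). Snrpb read 5.56 (not detected) and 7.82 and then 13.20 and 13.10, 6.46 higher (SE 0.58, adjusted p = 5.3e-06). In both genes MII oocyte 2 lay above oocyte 1 by more than 2 units, and all 4-cell values lay above both. Snrpc was not detected in either oocyte and read 11.11 and 10.68 in the embryos, at least 20.8-fold higher (log2 difference 5.55, SE 0.53, adjusted p = 8.5e-06). Snrpa1 rose by 1.40 (SE 0.37, adjusted p = 0.0080) and was not called without 4-cell embryo 2 (1.21) or oocyte 1 (1.14). Snrpd1 fell by -1.46 (SE 0.53, adjusted p = 0.037) and lost its call without either 4-cell embryo (-1.56 and -1.37) or oocyte 1 (-1.07).

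Srsf1, the founding SR protein, read 8.81 and 9.0 in oocytes and 14.72 in both 4-cell embryos. Its groups were tight and far apart, by 5.82 (SE 0.23, adjusted p = 4.4e-08), the smallest adjusted p among the 45 genes in this comparison. Srsf1 also read 13.50 in the genome-less embryo and 13.20 in the ES cell NT embryo of version 2, with 1 array each. The part of the embryo's genome in this difference was not tested. Srsf5 (3.73, SE 0.60, adjusted p = 0.00030), Srsf9 (3.24, SE 0.29, adjusted p = 5.1e-06), Srsf3 (3.07, SE 0.52, adjusted p = 0.00048; not detected in oocytes, at least 2.78-fold) and Srsf2 (1.19, SE 0.23, adjusted p = 0.0011) rose too, and Srsf6 (0.76) did not pass. Of the hnRNPs 8 of 11 rose, led by Hnrnph1 (3.85, SE 0.53, adjusted p = 9.8e-05) and Hnrnpm, which read 11.24 and 10.68 and then 14.20 and 14.51 (3.40, SE 0.29, adjusted p = 4.0e-06). Hnrnpa2b1 (at least 5.45-fold) and Hnrnpu (at least 2.85-fold) were not detected in oocytes. Sf3b3 read 7.38 and 6.53 in oocytes and 11.11 and 11.17 in 4-cell embryos, 4.18 higher (SE 0.55, adjusted p = 7.1e-05). Prpf8 rose by 2.18 (SE 0.46, adjusted p = 0.0020).

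The genes that fell were Lsm14b (-3.39, SE 0.73, adjusted p = 0.0023), U2af1l4 (-2.57, SE 0.47, adjusted p = 0.00074), Lsm14a (-2.40, SE 0.33, adjusted p = 0.00011), Prpf6 (-1.69, SE 0.25, adjusted p = 0.00019), Snrpd1, and Lsm11 and Prpf40b, which were detected in oocyte 2 and in no 4-cell embryo. Neither was called without oocyte 2 (-1.13 and -0.68) or without either 4-cell embryo. Lsm14a read 13.72 and 14.01 in oocytes and 11.43 and 11.50 in 4-cell embryos. U2af1l4 read 10.32 and 9.60 and then 7.56 and 7.20. Both 4-cell values lay below both oocyte values in each gene. Lsm14b's second probe differed by 0.04. Of the 28 genes called in this comparison, 9 had several probes. Of their other probes 5 were called the same way and 6 did not pass.

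**Figure D3:**
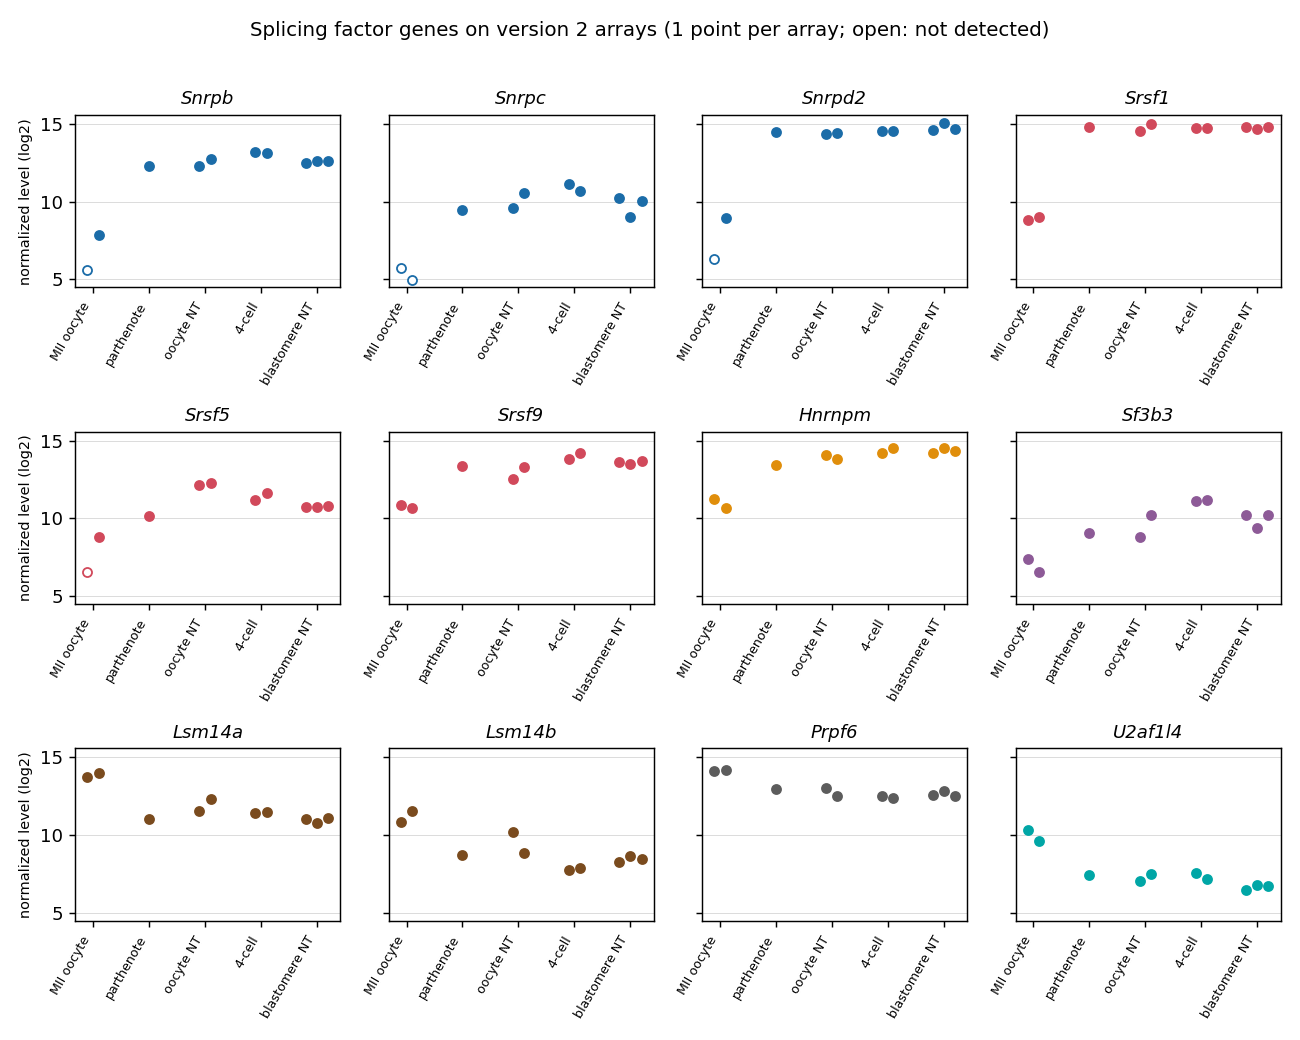
Normalized log2 level (y axis) of 12 genes on the version 2 arrays (points) of 5 groups (x axis): MII oocyte, parthenote, oocyte NT, 4-cell and blastomere NT; open points were not detected. Snrpb, Snrpc, Snrpd2, Srsf1, Srsf5, Srsf9, Hnrnpm and Sf3b3 are low in the 2 MII oocyte arrays and higher in the other groups plotted, and Lsm14a, Lsm14b, Prpf6 and U2af1l4 are higher in the oocytes than in the 4-cell embryos.

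The 2-cell and 4-cell comparisons share no samples and were made on different array versions. Of 20 genes called at the 2-cell stage and 28 at the 4-cell stage, 16 were called in both, which is 80.0% of the first and 57.1% of the second. Over the 6592 genes tested on both versions, 2195 were called in both, which is 70.5% of the 2-cell calls and 59.8% of the 4-cell calls, and 94.8% of these had the same direction. Of the 16 members called in both, 10 were higher in both (Hnrnpab, Hnrnpm, Hnrnpu, Sf3a3, Snrpa1, Snrpb, Snrpc, Snrpd2, Srsf3 and Srsf9) and 4 lower in both (Lsm14a, Lsm14b, Prpf6 and U2af1l4). Sf3b3 and Srsf2 had opposite signs: they were lower in 2-cell embryos than in M-phase zygotes and higher in 4-cell embryos than in MII oocytes. As given above, the 2-cell calls of Sf3a3, Sf3b3, Srsf2, Srsf3 and Lsm14a were lost when a sample was left out. So was the 4-cell call of Snrpa1, and the second probe of Lsm14b did not pass at the 2-cell stage. Zygotes and oocytes are different starting points, and the tables were normalized separately.

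Oocyte NT embryos had 17 genes higher and 7 lower than MII oocytes (2 samples each), beside 52.4% of all genes (26% higher and 26.4% lower). Snrpd2 read 14.33 and 14.42 (6.77 higher, SE 0.63, adjusted p = 9.2e-06), Srsf1 14.57 and 14.97 (5.87 higher, SE 0.23, adjusted p = 4.5e-08) and Snrpb 12.29 and 12.76 (5.84 higher, SE 0.58, adjusted p = 1.4e-05). Snrpc was at least 11.7-fold higher and Srsf5 rose by 4.51 (SE 0.60, adjusted p = 9.6e-05). U2af1l4 (-2.70, SE 0.47, adjusted p = 0.00061), Lsm14a (-1.91, SE 0.33, adjusted p = 0.00066) and U2af2 (-1.67, SE 0.47, adjusted p = 0.011) fell, and U2af2 was not called without MII oocyte 2 (-1.30). This comparison shares the MII oocytes with that of 4-cell embryos. The scaling to a 75th percentile moved the median of all genes to -0.75, gave 10 genes higher and 13 lower, and turned the sign of Srsf2 and Sf3a3. With slide as a block 22 genes were called. Of the genes called in the main fit 7 had several probes, and of their other probes 4 were called the same way and 5 did not pass.

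Blastomere NT embryos were measured 14 h after transfer. Against 4-cell controls none of the 45 genes was called in limma (2 samples each), beside 2.81% of all genes (2.07% higher and 0.738% lower), and 4 had an unadjusted p below 0.05; none was called under any of the alternatives run. Differences ranged from -1.33 (Sf3b3) to 0.83 (Srsf6). Snrpb read 12.51, 12.60 and 12.63, below both 4-cell embryos, with a difference of -0.57 (SE 0.58). Srsf1 read 14.81, 14.68 and 14.79, around the 4-cell level (0.02, SE 0.23). Against oocyte NT embryos none was called either, beside 9.27% of all genes (4.16% higher and 5.11% lower), with 9 at an unadjusted p below 0.05 and differences from -1.47 (Srsf5) to 1.49 (Srsf3). With the 3 blastomere NT arrays as separate samples, 3 genes were called in that comparison (Lsm10, Lsm14a and Srsf3), and with no background correction 1, Srsf5. Version 2 was the less sensitive in simulated data. With 200 of 7181 genes shifted, 32% of 2 log2 shifts and 0% of 1 log2 shifts were recovered between blastomere NT and 4-cell embryos. Of 13 fibroblast markers 5 were measured on version 2, and they averaged 6.52, 8.48 and 6.63 in blastomere NT embryos (3, 5 and 4 detected) against 5.83 and 5.84 in 4-cell controls (1 and 3 detected). The 4 macrophage markers measured averaged 8.52, 9.29 and 8.39 against 5.66 and 5.5. The part of either in these values was not tested.

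**Figure D4:**
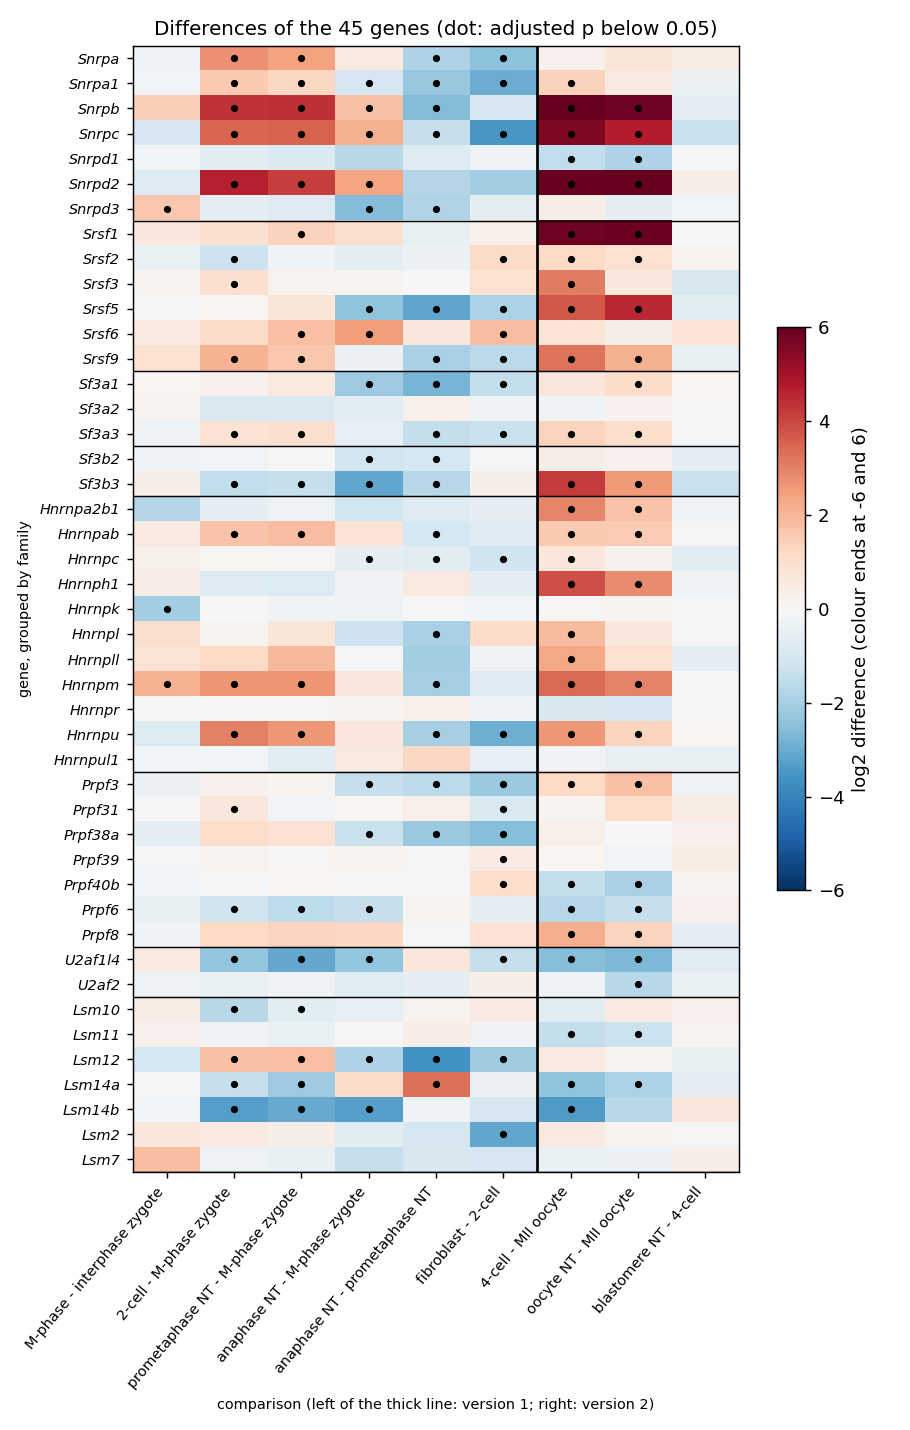
Log2 difference (colour, which ends at -6 and 6) of the 45 genes (rows, by family) in 9 comparisons (columns; the thick line parts version 1 from version 2); a dot marks an adjusted p below 0.05. Snrpb, Snrpc and Snrpd2 are red in both columns against M-phase zygotes for 2-cell and prometaphase NT embryos and in both columns against MII oocytes, and the column of anaphase minus prometaphase NT embryos is mostly blue.

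Other genes of the pathway were counted from lists chosen for their role. The snRNP assembly list holds the SMN complex and the methylation and import factors that build the Sm ring, and 14 of its 15 genes were measured. In 2-cell against M-phase zygotes 10 rose and 1 fell (median 2.12), beside 19.4% of all genes higher and 20.7% lower, with Gemin2 at least 21.7-fold higher and Gemin4 3.85 higher (SE 0.64, adjusted p = 0.0004). In anaphase NT against 2-cell embryos 10 were lower and none higher (median -1.81), beside 17.1% and 15.6% of all genes, with Snupn (-4.78, SE 0.56) and Gemin2 (-4.59, SE 0.33) furthest. In prometaphase NT against 2-cell embryos none was called, beside 1.59% of all genes, and the median was 0.05; 1 had an unadjusted p below 0.05. Fibroblasts had 12 lower than 2-cell embryos, beside 20.4% of all genes. In 4-cell embryos against MII oocytes 10 rose and 2 fell, beside 26.5% and 26.8% of all genes, with Gemin2 at least 46.3-fold higher.

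Of 63 other spliceosome components listed, 37 were measured on version 1. At the 2-cell stage 11 of the 37 rose and 9 fell, beside 19.4% of all genes higher and 20.7% lower. Cdc5l (2.62, SE 0.43) rose and Snrnp70, the 70K protein of U1, fell (-2.55, SE 0.39, at least 4.74-fold). In anaphase NT against 2-cell embryos 14 were lower and 1 higher, beside 17.1% and 15.6% of all genes, and against prometaphase NT embryos 16 and 1, beside 19.7% and 17.6%. Of 36 on version 2, 16 rose and 6 fell from oocytes to 4-cell embryos, beside 26.5% and 26.8% of all genes, Cdc5l by 7.48 (SE 0.47) and Snw1 by -4.72 (SE 0.47). Of 15 exon junction and export genes listed, 6 were measured. At the 2-cell stage 3 of the 6 rose, Eif4a3 by 2.31 (SE 0.31), and none fell, beside 19.4% of all genes higher and 20.7% lower. In anaphase NT against 2-cell embryos 3 were lower and 1 higher, beside 17.1% and 15.6% of all genes. Of 8 kinases of SR proteins listed, 5 were measured on version 1. At the 2-cell stage 1 of the 5 rose and 2 fell, Clk2 by -2.44 (SE 0.42) and Srpk1 by -1.84 (SE 0.33), beside the same shares of all genes (19.4% higher and 20.7% lower). Of 28 other regulators of exon choice listed, 12 were measured on version 1. At the 2-cell stage 5 of the 12 rose and 1 fell, beside 19.4% of all genes higher and 20.7% lower. Khdrbs1 rose by 2.63 (SE 0.48), while Celf2 fell by -2.48 (SE 0.43) and was 3.51 higher (SE 0.48) in anaphase NT than in 2-cell embryos. Each difference with an SE in this paragraph had an adjusted p of at most 0.001.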

How the data were processed

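Bead intensities per probe with a detection p-value were deposited by the authors as tables of unnormalized values, per the file headers; GenomeStudio is named in the submitters' processing notes, and other steps are not given in the sources used here. A second deposited table of intensities, correlated at 0.996 or more with the same arrays' unnormalized values but of unstated scaling and centring (column medians 3.08 to 19.5 on version 1 and 4.39 to 12.0 on version 2), served as an alternative. Arrays of each version were corrected with limma 3.58.1 (R 4.3.3) by neqc, which estimates background from the detection p-values, adds an offset of 16, quantile-normalizes and takes log2. Of 24613 and 25697 probes, 14898 and 15052 had 1 gene symbol and 9715 and 10645 had none.

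Named probes detected at p below 0.05 on 2 or more arrays were kept, and the probe with the highest mean level stood for a gene, so genes of several probes can hide disagreement. Group means were fitted over all genes and groups (18 samples and 9 residual degrees of freedom on version 1, 14 and 5 on version 2) with moderated variances and an intensity trend, and two-sided p-values were adjusted by Benjamini and Hochberg over all genes of a comparison, at 0.05. Where a gene was undetected on every array of the dimmer group, a fold is given as "at least", against the lowest signal detected on those arrays. Repeat hybridizations stayed out of the fit. Fibroblast arrays 1 and 2 were averaged (SD of their log2 difference 0.137 over all probes, against 0.119 to 0.150 for repeat hybridizations), as were blastomere NT arrays 1 and 3 (SD 0.248, against 0.643 with array 2); the latter pair exceeds the version 1 repeats, and version 2 held no repeats of its own to judge it by. Some labels call replicates biological duplicates and others say nothing, so the p-values cover only how far these samples varied, in part perhaps for technical reasons. The number of arrays limits the precision, and bead arrays give no counting depth.

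Genes were named by a rule: per comparison and family, up to 2 called members with the largest rise and 2 with the largest fall, where the groups did not overlap and no array of the higher one missed the gene, a fixed set of 26 members in any comparison, and up to 2 called genes of each other list. Further members were named after their values were seen, to complete a family or to show a call that rests on 1 sample. Members, lists and tests were chosen with earlier results of these data known. The model was tested on simulated data in which 200 genes were shifted and all others kept a common mean with normal noise. In 2-cell embryos against M-phase zygotes it recovered 70% of 2 log2 shifts and 29% of 1 log2 shifts. That comparison itself called 40.1% of all genes. Recovery depends on how many genes change, so these shares hold for the simulated setting only. Alternatives covered background correction, scaling, the second table, the detection filter, probes taken singly, slide as a block, and leaving out each sample.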

Additional observations from a re-analysis of the deposited data

Results flagged for a closer look

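Anaphase and prometaphase NT embryos had the same donor cell type, and the direct test of their difference called 20 of the 45 genes (limma, adjusted p below 0.05, 2 samples each), 19 lower and 1 higher in anaphase NT embryos, beside 37.3% of all genes called (17.6% higher and 19.7% lower). In log2 units, anaphase minus prometaphase, the snRNP genes differed by -2.62 (Snrpb), -2.28 (Snrpa1), -1.87 (Snrpa), -1.83 (Snrpd3) and -1.39 (Snrpc). The SF3 genes differed by -2.77 (Sf3a1), -1.72 (Sf3b3), -1.42 (Sf3a3) and -1.04 (Sf3b2). The SR genes differed by -3.15 (Srsf5) and -1.96 (Srsf9), and the Prpf genes by -2.21 (Prpf38a) and -1.56 (Prpf3). Of the called genes 4, among them Prpf3 and Prpf38a, had several probes. Of their other probes 2 were called the same way, 1 did not pass and 1 was called the opposite way. Against 2-cell embryos the opposite probe was that of Prpf3. The hnRNP genes differed by -1.98 (Hnrnpm), -1.97 (Hnrnpu), -1.96 (Hnrnpl), -1.07 (Hnrnpab) and -0.67 (Hnrnpc). Lsm12 differed by -3.65 and Lsm14a, the only gene higher in anaphase NT embryos, by 3.31. The groups lay on different slides, and with slide as a block the calls of Lsm12, Lsm14a, Sf3a1 and Snrpa1 remained. Without anaphase NT embryo 15, Hnrnpab, Hnrnpc, Hnrnpm, Hnrnpu, Snrpc and Sf3b3 were no longer called, with Sf3b3 at -0.69. Fibroblast, oocyte and embryo activation markers differed between the groups (the last averaging 7.42 and 8.07 against 10.14 and 9.96), and their part was not tested.

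Groups of 1 array entered no comparison. Members at least 2 log2 above every control array (M-phase zygotes on version 1, MII oocytes on version 2) and detected were counted in each. The genome-less embryo had 2 on version 1 (Hnrnpr at 7.29 and Prpf31 at 7.96) and 1 on version 2 (Srsf1 at 13.50). The ES cell NT embryo had 1 on version 1 (Prpf31 at 7.13) and 2 on version 2 (Sf3b3 at 9.73 and Srsf1 at 13.20). Of the 45 members 14 and 28 were detected in the genome-less embryos (version 1, then version 2), beside 31.8 and 62.3% of all genes tested. In the ES cell NT embryos 20 and 33 were detected, beside 35.5 and 65.7% of all genes. The parthenote had 8 (Hnrnpm, Hnrnpu, Snrpb, Snrpc, Snrpd2, Srsf1, Srsf3 and Srsf9), with Srsf1 at 14.79 against 8.81 and 9.0 in the oocytes. By the same rule, the share of all genes tested was 13.3 and 7.07% in the genome-less embryos, 10.6 and 6.93% in the ES cell NT embryos (version 1, then version 2) and 15.5% in the parthenote.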

How the results depend on the processing

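With slide as a block the counts of called members included 0 in place of 3 for M-phase against interphase zygotes, 7 in place of 19 for fibroblasts against 2-cell embryos, 3 in place of 21 for anaphase NT against 2-cell, 8 in place of 17 against M-phase zygotes and 4 in place of 20 against prometaphase NT embryos. Over all genes the block gave 487 calls in place of 2694 for anaphase NT against 2-cell embryos, 553 in place of 3073 against prometaphase NT and 1561 in place of 2982 against M-phase zygotes, 1566 in place of 3590 for fibroblasts, 44 in place of 131 for prometaphase NT against 2-cell, 9 in place of 136 for M-phase against interphase zygotes (all higher, in place of 63.2% higher), 20 in place of 202 for blastomere NT against 4-cell and 1 in place of 666 against oocyte NT embryos. Scaling to a 75th percentile gave 5533 for fibroblasts, 42 for prometaphase NT against 2-cell and 70 for M-phase against interphase zygotes. It lowered the share of calls that were higher from 49.7 to 37.9% for 4-cell embryos and from 49.6 to 33.3% for oocyte NT embryos. The second deposited table gave 78 for M-phase against interphase zygotes, 52 for blastomere NT against 4-cell embryos (94.2% of them higher, in place of 73.8%) and 341 against oocyte NT embryos. For cleavage-inhibited embryos the 16 calls over all genes became 9 with no background correction, 0 with the scaling, 1 with the block and 27 to 77 without 1 sample. Without 1 sample the counts over all genes ran from 23 to 447 for M-phase against interphase zygotes, 21 to 408 for blastomere NT against 4-cell and 98 to 496 against oocyte NT embryos, and with separate blastomere arrays the last was 1203. With fibroblasts 1 and 2 separate, M-phase against interphase zygotes gave 226, and with no detection filter blastomere NT against 4-cell embryos gave 130. The second deposited table gave 1 call for M-phase against interphase zygotes. Leaving out each sample in turn gave 1 to 7 there (1 without M-phase zygote 25, 7 without interphase zygote 1), 0 to 1 for prometaphase NT against 2-cell embryos (1 without 2-cell embryo 23) and 13 to 27 for anaphase against prometaphase NT embryos (13 without prometaphase NT embryo 28, 27 without anaphase NT embryo 19). Counting fibroblasts 1 and 2 as separate samples, chosen after seeing the data, gave 1 call for prometaphase NT against 2-cell embryos. For blastomere against oocyte NT embryos, no background correction gave 1 and separate arrays gave 3, in place of 0. Scaling to a 75th percentile turned the sign of Prpf39 in fibroblasts (-0.03), Hnrnpc in 4-cell embryos (-0.38), and Srsf2 (-0.40) and Sf3a3 (-0.29) in oocyte NT embryos; no other called member changed sign under any alternative run. The causes were not tested. No paired analysis was possible because the version 1 groups compared share no replicate numbers and the version 2 labels give none, those used here being names in accession order. Dim probes near background limit what can be called, and version 2 recovered fewer simulated shifts.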

Other observations

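The 2-cell RNA hybridized again on version 2 entered no comparison, since those arrays formed a slide of their own and slide and stage cannot be told apart. Snrpa read 11.55 and 12.02 in these 2-cell arrays, 9.49 and 9.18 in 4-cell embryos and 8.82 and 9.36 in MII oocytes. Lsm2 read 11.42 and 11.51 in the 2-cell arrays and 9.53 and 10.16 in 4-cell embryos. Lsm7, its partner in the U6 ring, read 10.27 and 10.15 in the 2-cell arrays and 12.13 and 12.02 in 4-cell embryos.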
